A study of Mus musculus with 9 samples.

Results

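The 10 glycolytic enzyme genes *Hk1*, *Gpi1*, *Pfkl*, *Aldoa*, *Tpi1*, *Gapdh*, *Pgk1*, *Pgam1*, *Eno1* and *Pkm* were followed by their symbols in RNA-seq libraries of 8-cell mouse embryos. All 10 were found among the 55335 symbols of each library, in 11 rows because *Aldoa* was listed in a pair of rows, and all 10 passed the filter on low values that left 13011 genes. Embryos of the ICR strain, cultured in KSOM medium, had received siRNA as zygotes and were collected as pools. Nontargeting siRNA was injected for control. For MFN1-KD the siRNA was directed to *Mfn1* (mitofusin 1, which joins mitochondrial outer membranes), and for H3.3-KD to *H3f3a* and *H3f3b*, which encode the histone variant H3.3. Each group had 3 libraries, made by Smart-Seq2 (oligo-dT primed cDNA, amplified by PCR). The sample labels give 5 to 10 embryos per pool and the study's methods give 10 per group. The values are FPKM, in which fragments are divided by gene length and by the library total. FPKM keeps no count, and the depth behind a value is therefore unknown.

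Glycolysis splits glucose into pyruvate in the cytoplasm. Hexokinase, phosphofructokinase and pyruvate kinase carry out its near-irreversible steps, aldolase and triose phosphate isomerase cut and interconvert the sugar phosphates, and the enzymes from *Gapdh* to *Pkm* make ATP and NADH. Mouse embryos before the morula stage are known to live mainly on pyruvate and lactate and to take up more glucose from the morula stage on. *Gapdh* has a further role in this study: its transcript was the reference of the qRT-PCR and its protein that of the western blots. Each group's level of the *Gapdh* transcript therefore bears on the scaling of qRT-PCR at the stage sequenced here. It does not bear on qRT-PCR of other stages, or on the western blots, which used oocyte lysates and the protein.

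The sequence before the transcription start is shown for *Gapdh*, which had the widest difference between the groups, for *Pgam1*, which had the highest level, and for *Pgk1*, the only one of the 10 whose mean was lowest in H3.3-KD. Each is the 250 bases upstream of a RefSeq start on build GRCm38.p6, on the gene's own strand and written 5′ to 3′. Capitals mark GGGCGG or CCGCCC (the GC box bound by Sp1-type factors, read on both strands). They also mark ACGTG or CACGT (a form of the core of the hypoxia response element, read on both strands). Other forms of either motif were not searched for.

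*Gapdh*, chr6:125165774-125166023, minus strand: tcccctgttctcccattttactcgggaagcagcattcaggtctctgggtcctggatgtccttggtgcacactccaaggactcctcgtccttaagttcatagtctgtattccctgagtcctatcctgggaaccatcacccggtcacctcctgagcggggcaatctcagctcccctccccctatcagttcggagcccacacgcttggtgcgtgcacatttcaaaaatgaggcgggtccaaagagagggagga

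*Pgam1*, chr19:41911621-41911870, plus strand: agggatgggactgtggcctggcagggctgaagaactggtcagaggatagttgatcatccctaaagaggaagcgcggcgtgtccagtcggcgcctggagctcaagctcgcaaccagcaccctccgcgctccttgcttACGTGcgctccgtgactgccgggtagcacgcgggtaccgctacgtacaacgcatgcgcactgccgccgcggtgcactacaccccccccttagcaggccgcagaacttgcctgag

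*Pgk1*, chrX:106186850-106187099, plus strand: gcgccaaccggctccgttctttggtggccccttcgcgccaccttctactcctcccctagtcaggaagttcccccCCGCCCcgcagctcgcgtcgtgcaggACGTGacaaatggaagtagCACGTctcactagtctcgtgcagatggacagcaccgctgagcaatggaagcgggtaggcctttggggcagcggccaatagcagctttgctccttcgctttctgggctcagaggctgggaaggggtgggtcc

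The *Gapdh* window held neither motif in the letters searched. The *Pgam1* window held 1 ACGTG core and no GC box, and the *Pgk1* window held 1 GC box and 2 ACGTG cores. The *Gapdh* window lies within the span of the gene in GENCODE but in none of its exons, since longer transcripts begin further upstream. Of the 16 RefSeq windows of the 10 genes, 8 held a GC box (6 genes) and 5 an ACGTG core (4 genes). The same letters were in 32.7% and 16.6% of the 32851 windows of this length genome-wide. Some windows of *Eno1* and of *Aldoa* overlap each other, so the same site was counted in several windows. TATAAA (both strands, 12.4% of windows) and the E-box CACGTG (6.0% of windows, itself containing the ACGTG core) were in no window of the 10 genes.

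The libraries differed in ways that touch every gene. The number of genes above 0 FPKM was 21643 to 22507 in control, 23655 to 24820 in H3.3-KD and 15577 to 20842 in MFN1-KD, and MFN1-KD replicate 3 was the lowest. *Mfn1* was at 51.57, 22.55 and 23.77 FPKM in the control libraries and at 9.54, 4.40 and 1.15 FPKM in the MFN1-KD libraries. *H3f3a* was at 1593.68, 2091.76 and 2110.30 FPKM in control and at 169.71, 116.98 and 161.01 FPKM in H3.3-KD, and *H3f3b* was likewise lower (2895.28 to 3165.58 against 171.26 to 310.70 FPKM). The embryo genes *Dppa3*, *Klf5*, *Tfap2c*, *Tead4*, *Nanog* and *Cdh1* were above 8 FPKM in every library, whereas *Sox2*, *Eomes* and *Cdx2* were under 1 FPKM in every control and *Pou5f1* was at 5.10 to 8.90 FPKM in control, 0.30 to 3.68 FPKM in MFN1-KD and 63.06 to 392.19 FPKM in H3.3-KD. Of 12 markers of cumulus and granulosa cells, which surround the egg, 10 were under 1 FPKM in every library and 3 of these were listed at 0 throughout, but *Amhr2* was at 10.16 to 66.09 FPKM. The summed FPKM of the cumulus list was 16.1 to 30.2 in control, 10.49 to 20.61 in MFN1-KD and 39.44 to 69.79 in H3.3-KD. The summed level of 8 genes of the earlier cleavage stage marked by *Zscan4* and *Tdpoz* genes was 19.05 to 31.08 FPKM in control, 29.45 to 71.35 in MFN1-KD and 225.46 to 672.56 in H3.3-KD. In H3.3-KD *Tdpoz4* alone was at 210.93, 339.05 and 466.98 FPKM, and *Gm5662* reached 251.26 FPKM in replicate 2. *Zscan4c* (0.24 to 4.31 FPKM) and *Zscan4d* (0.37 to 3.46 FPKM) overlapped control there. The part of these differences in the results on the enzymes was not tested. In pools of this kind, fewer cells of a type and less RNA per cell cannot be told apart.

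In control embryos the enzymes spanned a wide range of levels. *Pgam1* (phosphoglycerate mutase, which moves the phosphate of phosphoglycerate) was at 119.07, 114.64 and 97.68 FPKM, a mean of 110.5 ± 11.3 (SD, n = 3), and ranked 1218 of the 13011 genes. *Aldoa* (aldolase, which cuts fructose bisphosphate) followed at 59.3 ± 15.3 FPKM. These were the only levels that stood clear of the next gene in every library down to *Tpi1*. *Gpi1* (glucose phosphate isomerase, 12.5 ± 3.36 FPKM) and *Pgk1* (phosphoglycerate kinase, which makes ATP, 12.1 ± 3.02 FPKM) overlapped each other. *Pkm* (6.22 ± 2.77 FPKM), *Eno1* (enolase, 6.06 ± 2.42 FPKM), *Gapdh* (3.98 ± 1.90 FPKM), *Hk1* (3.66 ± 2.49 FPKM) and *Tpi1* (2.16 ± 0.931 FPKM) followed, and each of these overlapped its neighbour in this order. *Pfkl*, the liver-type phosphofructokinase, was lowest in every control library, at 0.81, 0.67 and 0.75 FPKM.

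The *Gapdh* row was thus not high in the control libraries, where it ranked 7889 of 13011 by FPKM. The reference genes *Ppia* (4199.3 FPKM) and *Actb* (336.1 FPKM) stood 1054.2 and 84.4 times above this row in mean control FPKM. Most of the *Gapdh* sequence is shared with copies, described below, and how shared reads were treated is not given. The abundance of the *Gapdh* transcript itself is therefore uncertain. Together the 10 enzymes held 217.2 ± 36.3 summed FPKM in control and 495.5 ± 44.5 in H3.3-KD, with 279.1 ± 66.7 in MFN1-KD (SD, n = 3 each). *Pgam1* alone made up 47.9 to 55.1% of the sum in control, 52.1 to 74.5% in MFN1-KD and 43.2 to 56.0% in H3.3-KD.

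**Figure D1:**
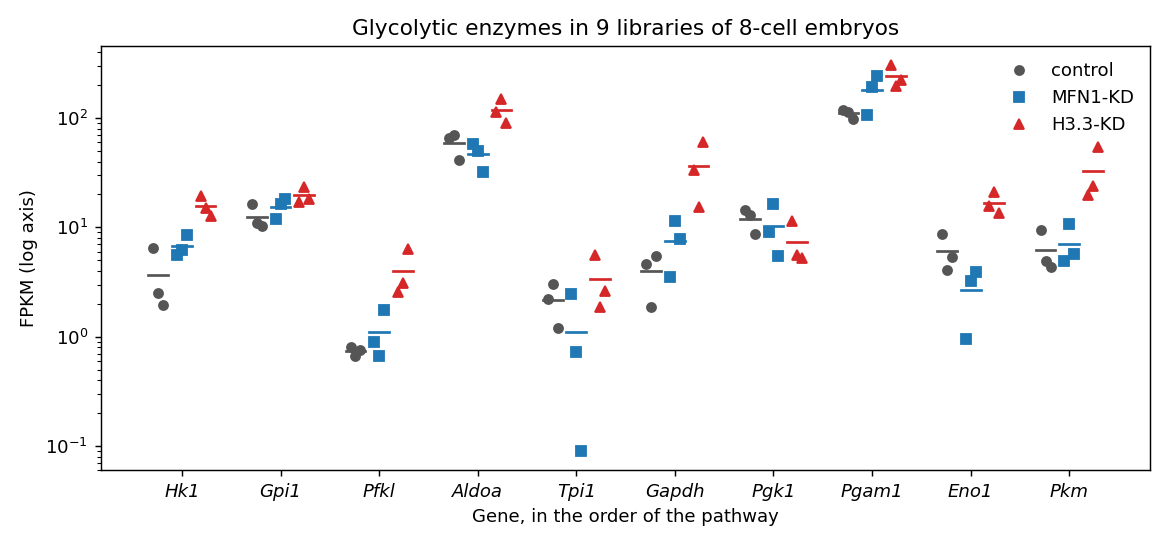
FPKM of the 10 glycolytic enzymes on a log axis, in the order of the pathway, with a point for each of the 3 libraries of a group and a line at the group mean. The control and H3.3-KD points do not overlap for 8 genes, and *Pgk1* is the gene whose H3.3-KD mean is lowest.

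After H3.3 knockdown most of the pathway was higher than in control. With limma on log2(FPKM + 1) and Benjamini-Hochberg adjustment over all 13011 genes, 7 of the 10 enzymes rose and none fell at an adjusted p under 0.05, where 21.8% of all genes rose and 9.12% fell. The median log2 fold change was 1.23 over the 10 enzymes and 0.26 over all genes, and 9 of the 10 lay above the latter. *Pfkl* averaged 0.925 FPKM over the control and MFN1-KD libraries and passed the filter of 1 FPKM only through H3.3-KD, where it is high, so its call is a description. Without it 6 of 9 enzymes rose. At the study's threshold, a fold change over 2 with an unadjusted p under 0.05, 6 enzymes were higher and 0 lower, against 23.9% and 9.39% of all genes. The libraries of the groups did not overlap for 8 enzymes, all higher in H3.3-KD, against 34.5% of all genes higher and 18.9% lower without overlap.

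The scaling of the libraries and base composition moved with this result. Median-ratio scaling shifted the median of all genes from 0.26 to -0.01, lowered the rises among all called genes from 70.5% to 54.2%, and left 4 of the 10 enzymes called higher (*Hk1*, *Pfkl*, *Gapdh* and *Pkm*), where 16.0% of all genes were higher. All 10 enzymes had a GC content above the median of the genes tested (49.7 to 57.7% in the longest transcript, against 48.9%), and across 12803 genes the log2 fold change in H3.3-KD had a Spearman's rho of 0.34 with GC content, given as a description because genes share their libraries. When the dependence on GC content and on transcript length was removed within each library, only *Gapdh* passed, and 1 of 10 is close to the 11.6% of all genes that were higher in that fit. Both values came from the longest transcript, which for *Gapdh* has 3289 bases at 52.6% GC. Its main coding transcript has 1420 bases at 56.6% GC, and whether *Gapdh* passes with these values was not tested. The count of enzymes called higher was also 3 without control replicate 2, 3 without control replicate 3 (*Hk1*, *Gapdh* and *Pkm* in both) and 4 without H3.3-KD replicate 1. Over all genes 14.2%, 13.5% and 19.0% were higher in these fits.

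**Figure D2:**
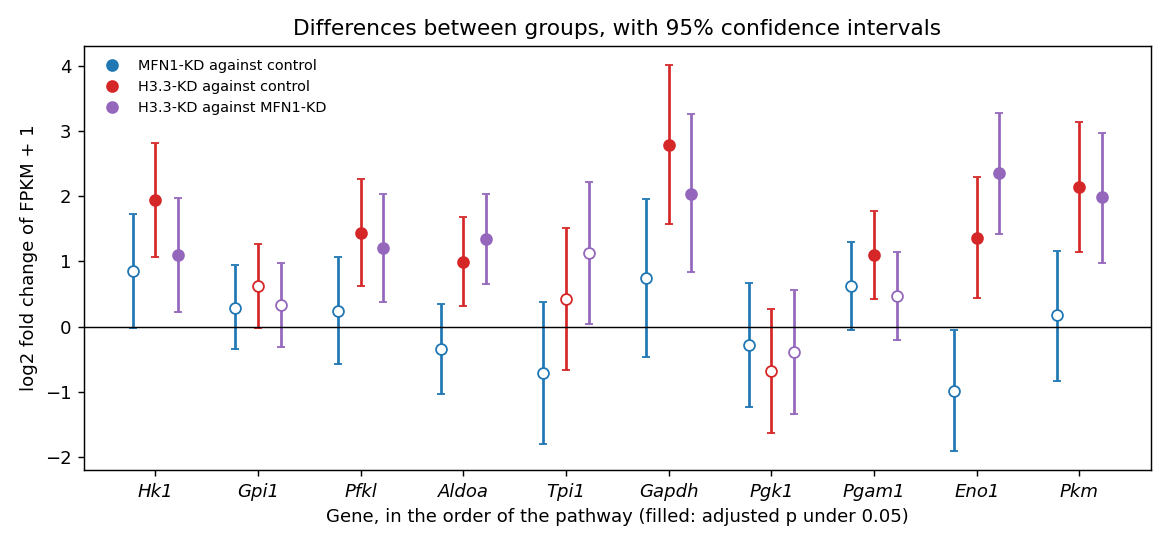
Fitted log2 fold change of FPKM + 1 with its 95% confidence interval for each enzyme in the 3 comparisons, filled where the adjusted p is under 0.05. *Gapdh*, *Pkm* and *Hk1* rose furthest in H3.3-KD against control, and every MFN1-KD against control point is open.

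*Hk1* encodes a hexokinase that traps glucose in the cell and is known to bind mitochondria, and it lies at chr10:62268855-62379908 (minus strand, 22 exons in the coding transcript used). It was at 6.51, 2.53 and 1.93 FPKM in control and at 19.34, 15.01 and 12.58 FPKM in H3.3-KD. All H3.3-KD libraries were above all controls, of which replicate 1 was the highest. The log2 fold change was 1.94 ± 0.39 (SE), with an adjusted p of 0.00461 by limma. After removal of the GC and length trend it was 0.87, with an adjusted p of 0.115 by limma. An antisense gene, *Hk1os*, overlaps *Hk1* and was at 0.33 to 2.10 FPKM in control, 0.36 to 0.90 in H3.3-KD and 1.74 to 5.03 in MFN1-KD; the strand setting of the counting is not given in the sources used here, so reads of the pair could not be told apart.

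*Gpi1*, at chr7:34201330-34230336 (minus strand), turns glucose phosphate into fructose phosphate. Its H3.3-KD libraries, at 17.17, 23.27 and 18.35 FPKM, were all above the controls at 16.39, 11.01 and 10.22 FPKM. The gap between the nearest libraries was under 1 FPKM. The difference did not pass (log2 fold change 0.62, 95% confidence interval -0.03 to 1.27, limma adjusted p = 0.133) and became -0.20 with the GC and length trend removed.

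*Pfkl*, a subunit of the phosphofructokinase that commits sugar to glycolysis, lies at chr10:77986947-78010083 (minus strand). It was at 2.57, 3.07 and 6.34 FPKM in H3.3-KD, each above the highest control of 0.81 FPKM. The mean was 5.37 times that of control, and H3.3-KD replicate 3 was the highest. On the log2(FPKM + 1) scale, which understates the change of a gene this low, the fold change was 1.44 ± 0.37 (limma adjusted p = 0.0143). The call was lost without H3.3-KD replicate 3 (limma adjusted p = 0.0602), without control replicate 2 (0.0548) or without control replicate 3 (0.0516), and with the GC and length trend removed (0.669).

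*Aldoa* lies at chr7:126795234-126800751 (minus strand). Its main row was at 66.15, 69.96 and 41.77 FPKM in control and at 114.67, 151.09 and 90.60 FPKM in H3.3-KD. No library overlapped, and the mean was 2.00 times that of control. It rose by a log2 fold change of 0.99 ± 0.31 (limma adjusted p = 0.0336). This call was lost under median-ratio scaling (0.0941), under GC and length removal (0.609) and without any of control replicates 1 to 3 or H3.3-KD replicates 1 and 2 (0.0530 to 0.138). A further row of the same symbol, annotated upstream at chr7:126800790-126809108, was listed at 0 in all control and MFN1-KD libraries and at 0.13, 0.21 and 0.29 FPKM in H3.3-KD. *Fam57b*, on the opposite strand and overlapping *Aldoa*, was at 2.13 to 3.06 FPKM in control and 15.00 to 33.32 FPKM in H3.3-KD.

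*Tpi1*, which interconverts the triose phosphates, lies at chr6:124810586-124814296 (minus strand). It was at 2.21, 3.06 and 1.20 FPKM in control and at 5.61, 1.85 and 2.63 FPKM in H3.3-KD. These ranges overlapped. A log2 fold change of 0.42 was estimated, with a 95% confidence interval of -0.67 to 1.51 (limma adjusted p = 0.554).

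*Gapdh* oxidises glyceraldehyde phosphate and reduces NAD, and it lies at chr6:125161715-125166467 (minus strand). Its control libraries were at 4.61, 1.85 and 5.49 FPKM and its H3.3-KD libraries at 33.33, 15.38 and 60.33 FPKM. The lowest H3.3-KD library was above every control, and H3.3-KD replicate 3 was the highest of all. The mean rose from 3.98 ± 1.90 to 36.3 ± 22.6 FPKM (SD, n = 3 each), 9.12 times. The log2 fold change of 2.79 ± 0.55 (limma adjusted p = 0.00400) was the largest among the 10 enzymes, and it passed in all 19 alternatives in which it was tested, at 1.94 to 3.29. The filter of a mean of at least 10 FPKM is among these alternatives. *Gapdh* passed that filter only through H3.3-KD (5.77 FPKM over control and MFN1-KD), so its call there supports nothing. The fit with the GC and length trend removed (1.94, limma adjusted p = 0.0286) is another, and it used the longest *Gapdh* transcript. The shorter main coding transcript was not tested in it.

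*Pgk1*, at chrX:106187100-106203699 (plus strand), was the exception among the 10. It was at 14.48, 13.02 and 8.67 FPKM in control and at 11.39, 5.61 and 5.25 FPKM in H3.3-KD. The groups overlapped through H3.3-KD replicate 1. Its fitted log2 fold change was -0.68, with a 95% confidence interval of -1.63 to 0.27 (limma adjusted p = 0.258).

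*Pgam1*, at chr19:41911923-41918660 (plus strand), was the most abundant of the 10 in every library. It reached 304.76, 197.35 and 221.09 FPKM in H3.3-KD, all above the control maximum of 119.07 FPKM. The mean was 2.18 times that of control. The log2 fold change was 1.10 ± 0.31 (limma adjusted p = 0.0207), and this call was lost under median-ratio scaling (0.117), with the GC and length trend removed (0.314) and without control replicate 2 (0.0575), control replicate 3 (0.0809) or H3.3-KD replicate 1 (0.0731).

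*Eno1*, at chr4:150236721-150248879 (plus strand), makes phosphoenolpyruvate. It was at 8.77, 4.11 and 5.31 FPKM in control and at 15.67, 21.02 and 13.64 FPKM in H3.3-KD. All H3.3-KD libraries exceeded all controls. *Eno1* rose by a log2 fold change of 1.36 ± 0.42 (limma adjusted p = 0.0307), a call that was lost under median-ratio scaling (0.0800), with the GC and length trend removed (0.597) and without any of control replicates 2 and 3 or the H3.3-KD libraries (0.0511 to 0.122).

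*Pkm*, the pyruvate kinase expressed outside liver and red cells, lies at chr9:59656368-59679375 (plus strand). It was at 9.40, 4.94 and 4.33 FPKM in control and at 19.87, 23.69 and 53.97 FPKM in H3.3-KD. The H3.3-KD libraries were all higher, with replicate 3 the highest as for *Gapdh* and *Pfkl*. Its log2 fold change was 2.14 ± 0.45 (limma adjusted p = 0.00539), and 0.98 with the GC and length trend removed (limma adjusted p = 0.107).

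After MFN1 knockdown no enzyme passed. By limma 0 of 10 were higher and 0 lower, where 1.15% of all genes were higher and 2.20% lower. An unadjusted p under 0.05 was reached by 1 of 10 (*Eno1*), and by 3025 of all 13011 genes. The median log2 fold change was 0.20 over the 10 enzymes and -0.08 over all genes. At the study's threshold 0 enzymes were higher and 0 lower, against 5.02% and 9.05% of all genes. Libraries did not overlap for 1 enzyme, *Eno1*, which was lower, against 16.8% of all genes lower and 11.4% higher without overlap. Calls in MFN1-KD depended on the fit: limma called 436 of 13011 genes in all, 31 with the replicate number as a block and 0 with only the 6 libraries compared, where 2724 had an unadjusted p under 0.05.

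*Eno1* was at 0.96, 3.25 and 3.87 FPKM in MFN1-KD, all below the lowest control of 4.11 FPKM. The gap to that control was small beside the spread of either group. The log2 fold change was -0.99 with a 95% confidence interval of -1.91 to -0.06 (limma adjusted p = 0.189). *Gapdh*, at 3.49, 11.38 and 7.83 FPKM, overlapped its controls through replicate 1. Its mean was 1.90 times that of control, and the interval of the log2 fold change ran from -0.47 to 1.96 around 0.75 (limma adjusted p = 0.447).

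*Hk1* was at 5.61, 6.18 and 8.55 FPKM in MFN1-KD and overlapped the highest control (log2 fold change 0.85, interval -0.02 to 1.72). *Pgam1*, at 105.65, 191.34 and 243.68 FPKM, was above the controls in 2 of 3 libraries (0.62, interval -0.05 to 1.30). *Tpi1* was spread from 2.46 through 0.73 to 0.09 FPKM, the last in MFN1-KD replicate 3, the library with the fewest genes above 0 (-0.71, interval -1.80 to 0.38). The others had intervals that held 0 and overlapped control: *Gpi1* (12.00, 16.35 and 18.17 FPKM), *Pfkl* (0.89, 0.67 and 1.76 FPKM), *Aldoa* (57.75, 50.01 and 32.10 FPKM), *Pgk1* (9.16, 16.45 and 5.45 FPKM) and *Pkm* (4.94, 10.73 and 5.67 FPKM). These intervals leave room for log2 differences past 1 in *Hk1*, *Pfkl*, *Tpi1*, *Gapdh*, *Pgk1*, *Pgam1*, *Eno1*, *Aldoa* and *Pkm*, so a missing call does not show that the levels were alike.

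The knockdowns were also compared with each other, which tests the difference between them. Of the 10 enzymes, 6 were higher in H3.3-KD than in MFN1-KD and 0 lower by limma, where 27.6% of all genes were higher and 11.0% lower. At the fold threshold with an unadjusted p, 7 enzymes were higher and 0 lower, against 29.1% and 11.0% of all genes. The widest was *Eno1* (log2 fold change 2.35 ± 0.42, limma adjusted p = 0.00166), followed by *Gapdh* (2.04 ± 0.55, adjusted p = 0.0142) and *Pkm* (1.98 ± 0.45, adjusted p = 0.00617). *Aldoa* (1.34), *Pfkl* (1.20) and *Hk1* (1.10, limma adjusted p = 0.0486) completed the 6, and the groups overlapped in none of these 6 genes, where 33.1% of all genes were higher and 14.8% lower without overlap. *Pfkl* passed the filter of 1 FPKM only through H3.3-KD, so its call is a description here too. *Tpi1* missed the adjusted threshold (1.13, limma adjusted p = 0.0934), as did *Pgam1* (0.47), *Gpi1* (0.33) and *Pgk1* (-0.39). The median over the 10 was 1.17, against 0.39 over all genes, and after removal of the GC and length trend none was called higher and *Pgk1* was called lower (-1.18, limma adjusted p = 0.0398). Without H3.3-KD replicate 3 the count was 3, and *Gapdh* was no longer called (limma adjusted p = 0.0556).

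Several enzymes have copies elsewhere in the genome, and reads from these can be split between rows. A copy was counted here as an annotated gene sharing at least 5% of a member's 50-base words. *Gapdh* had 99 such genes, 95 of them pseudogenes, which together held 82.5% of its words, and 64 were above 0 FPKM in some library. *Eno1* had 3 copies (72.2% of words), *Pgk1* 3 (68.0%), *Pgam1* 2 (41.5%), *Pkm* 3 (32.6%), *Gpi1* 1 (18.6%), *Aldoa* 1 (6.4%) and *Tpi1* 1 (5.3%), whereas *Hk1* and *Pfkl* had none. How reads that matched several places were treated is not given in the sources used here.

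The copies of *Gapdh* summed to 7.62, 7.57 and 6.95 FPKM in control, more than *Gapdh* itself in each control library. In H3.3-KD they summed to 31.30, 18.66 and 58.77 FPKM and in MFN1-KD to 2.14, 6.90 and 0.13 FPKM. Replicate 3 of H3.3-KD was again the highest. With the copies added, *Gapdh* rose from 11.4 ± 1.69 to 72.6 ± 43.1 FPKM in H3.3-KD (log2 fold change 2.41, limma adjusted p = 0.00460), while the estimate in MFN1-KD turned from 0.75 to -0.23 (limma adjusted p = 0.819). The copy closest in sequence, *Gm7336*, held 82.5% of the words of *Gapdh* but was at or under 0.08 FPKM in control and MFN1-KD and at 0.71 to 2.96 FPKM in H3.3-KD. The pseudogene *Gm13394* (65.7% of words), chosen after its values were seen, was the highest copy in each H3.3-KD library, at 18.36, 6.85 and 33.76 FPKM. It was at 0.82 to 2.54 FPKM in control and 0 to 1.09 FPKM in MFN1-KD.

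For *Eno1* the copies made up a large share of the signal. *Eno1b*, which holds 70.5% of its words, was at 5.84, 3.59 and 3.71 FPKM in control and at 0.22, 0.78 and 0 FPKM in MFN1-KD. The groups did not overlap, and *Eno1b* fell by 2.03 on the log2 scale (limma adjusted p = 0.0438), a call that was lost in 11 of 17 alternatives (adjusted p up to 0.162). The pseudogene *Gm4735*, chosen after its values were seen, was at 3.00 to 3.98 FPKM in control, 0 to 0.18 FPKM in MFN1-KD and 10.67 to 20.02 FPKM in H3.3-KD. With the copies added, *Eno1* was at 14.0 ± 3.73 FPKM in control and 3.09 ± 1.66 FPKM in MFN1-KD, and the log2 fold change of -1.95 ± 0.40 passed the threshold (limma adjusted p = 0.0378).

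*Pgam1-ps2*, the pseudogene nearest to *Pgam1*, rose in H3.3-KD by a log2 fold change of 2.88 ± 0.38 (limma adjusted p = 0.000544). It was at 0.33, 2.31 and 1.1 FPKM in control and at 0.07, 0.32 and 0 FPKM in MFN1-KD. It passed the filter of 1 FPKM only through H3.3-KD, where it is high, so its call is a description. The copies of *Pgam1* summed to 0.33 to 2.31 FPKM in control and 11.94 to 16.57 FPKM in H3.3-KD, little beside the gene itself. With them added, the log2 fold change of *Pgam1* in H3.3-KD was 1.17 (limma adjusted p = 0.0153). The copies nearest to the others (*Pgk1-rs7*, *Gm6560* for *Pkm*, *Gm1840* for *Gpi1*, *Aldoart1* and *Tpi-rs11*) were under the filter of 1 FPKM, and the copies of each of these genes summed to at most 1.82 FPKM in any library.

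**Figure D3:**
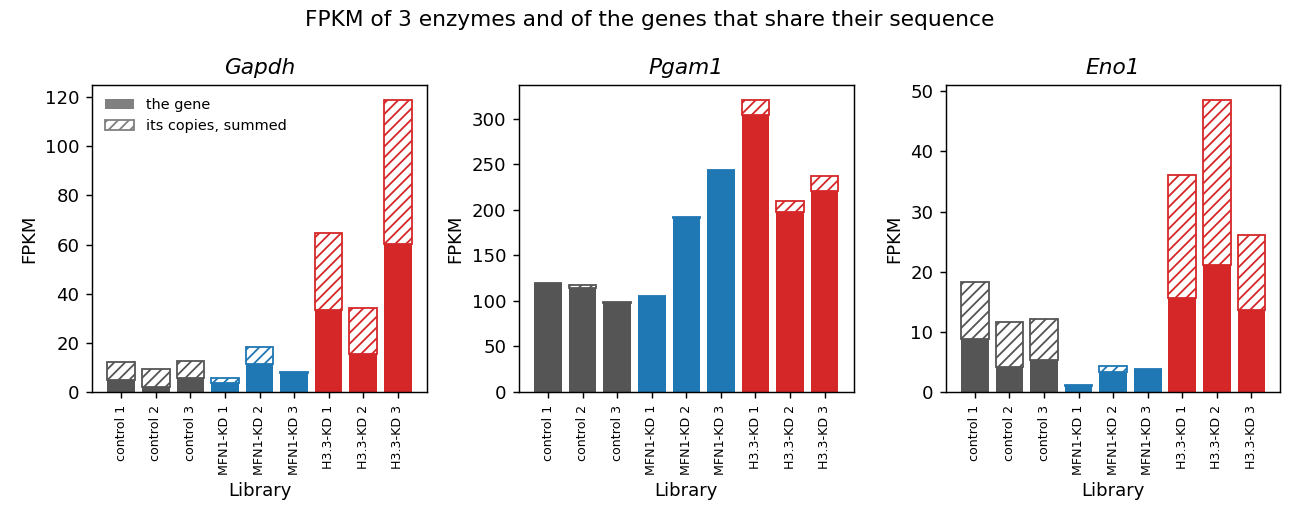
Stacked bars of FPKM in each library for *Gapdh*, *Pgam1* and *Eno1* (solid) and for the sum of the genes that share their sequence (hatched), each panel on its own linear axis from 0. The hatched part is taller than the solid part for *Gapdh* in control 1 to 3 and H3.3-KD 2. For *Eno1* it is taller in control 1 to 3 and in H3.3-KD 1 and 2, and small in MFN1-KD.

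Because *Gapdh* was the reference gene of the study's qRT-PCR, the targeted genes were also set against it. Relative to *Gapdh*, *Mfn1* was at a mean log2 ratio of 2.74 ± 0.70 in control and -0.67 ± 1.70 in MFN1-KD (SD, n = 3 each), a difference of -3.40. Without a reference the difference was -2.66. The ratio was lower in 3 of 3 libraries, and the two-sided exact permutation p was 0.10, the smallest that 3 libraries against 3 can give.

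The choice of reference mattered more for H3.3-KD. *H3f3a* differed by -6.48 relative to *Gapdh* and by -3.69 without a reference, which are 1.12% and 7.74% of control on the log2(FPKM + 1) scale. *H3f3b* differed by -6.43 and -3.64, which are 1.2% and 8.04% of control. Every H3.3-KD library was below every control either way (exact permutation p = 0.10 for each). Relative to the mean log2 level of all 10 enzymes, the differences were -4.91 for *H3f3a*, -4.85 for *H3f3b* and -2.71 for *Mfn1*. These are RNA-seq values, and the study's qRT-PCR was not analysed here.

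**Figure D4:**
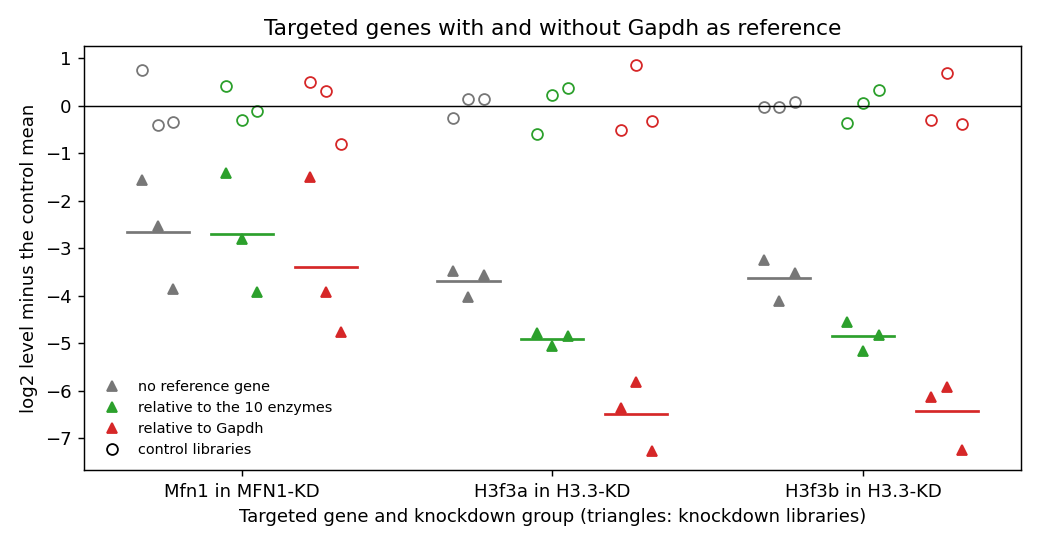
log2 level of each targeted gene minus its control mean, per library, with no reference gene, relative to the 10 enzymes and relative to *Gapdh* (open circles control, triangles knockdown, lines knockdown means). The H3.3-KD triangles for *H3f3a* sit around -3.69 without a reference and around -6.48 relative to *Gapdh*.

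Dividing each library by its *Gapdh* FPKM subtracts the rise of *Gapdh* from every gene. In H3.3-KD against control the log2 fold change over all genes then had a median of -2.0, with 62.7% of genes called lower and 0.522% higher, so the signs of the other enzymes under this scaling restate the rise of *Gapdh*. On the FPKM scale, of 16 common reference genes tested, 3 rose and 4 fell in H3.3-KD, where 21.8% of all genes rose and 9.12% fell, and 0 rose and 1 fell in MFN1-KD, where 1.15% rose and 2.20% fell. *Actg1* (cytoplasmic gamma-actin) rose from 131.80, 121.25 and 89.46 FPKM to 541.32, 569.23 and 283.09 FPKM, by a log2 fold change of 1.97 (limma adjusted p = 0.00297), and *Tfrc* (transferrin receptor) fell by 1.09 on the log2 scale (limma adjusted p = 0.00687). *Tbp*, the TATA-binding protein, fell in MFN1-KD by 1.18 (limma adjusted p = 0.0466), from 50.12 to 62.98 FPKM in control to 16.94 to 33.27 FPKM, a call that was lost in 12 of 18 alternatives (adjusted p up to 0.188).

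Other isozymes catalyse the same steps. Of 17 isozyme genes, 7 were tested, and in H3.3-KD 1 rose and 1 fell (median log2 fold change 0.27), with 0 called in MFN1-KD (median -0.24). Over all genes 21.8% rose and 9.12% fell in H3.3-KD (median 0.26) and 1.15% rose and 2.20% fell in MFN1-KD (median -0.08). The isozymes were not tested against the 10 enzymes. *Hk2*, another hexokinase, fell while *Hk1* rose: it was at 29.52, 41.98 and 29.90 FPKM in control and at 5.88, 9.78 and 4.08 FPKM in H3.3-KD, and fell by 2.25 on the log2 scale (limma adjusted p = 0.00117). In MFN1-KD *Hk2* was at 39.62, 49.68 and 74.67 FPKM (log2 fold change 0.65, adjusted p = 0.300). *Hk1* made up 9.94% ± 7.04 of the summed FPKM of the pair in control and 70.9% ± 9.0 in H3.3-KD, with 11.2% ± 1.08 in MFN1-KD (SD, n = 3 each), which is given as a description. *Adpgk*, a glucokinase that spends ADP in place of ATP, rose from 2.61, 2.11 and 2.16 FPKM to 14.70, 17.47 and 10.84 FPKM, a log2 fold change of 2.20 (limma adjusted p = 0.000661). The muscle-type mutase *Pgam2* (7.79 FPKM in control) and the platelet-type phosphofructokinase *Pfkp* (1.45 FPKM) did not pass, and *Hk3*, *Pfkm*, *Gapdhs*, *Pgk2*, *Eno4* and *Pklr* were under 1 FPKM in every library.

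Beyond pyruvate lie lactate dehydrogenase and the mitochondrial entry of pyruvate. Of 17 genes of lactate and pyruvate 13 were tested, and 2 rose and 2 fell in H3.3-KD (median 0.20), against 21.8% and 9.12% of all genes, while 0 rose and 1 fell in MFN1-KD (median 0.06; 1.15% and 2.20% of all genes). *Ldha*, the lactate dehydrogenase subunit of glycolytic tissues, rose from 4.15, 5.89 and 3.73 FPKM to 33.93, 63.87 and 70.39 FPKM. No library overlapped, and the log2 fold change was 3.3 ± 0.53 (limma adjusted p = 0.00138), larger than that of *Gapdh*. *Ldhb*, the heart-type subunit, which is no gene of the naming rule and was chosen after its values were seen, was at 13.19, 12.67 and 17.21 FPKM in control and at 4.29, 10.64 and 14.25 FPKM in H3.3-KD (-0.64, limma adjusted p = 0.268). As a description, *Ldha* made up 24.5% ± 6.98 of the summed FPKM of the pair in control and 85.9% ± 2.81 of it in H3.3-KD, while the MFN1-KD share was 21.9% ± 17.2. *Mpc1* and *Mpc2*, which together carry pyruvate into mitochondria, fell in H3.3-KD by 0.73 and 0.76 (limma adjusted p = 0.00748 and 0.0125), and *Mpc2* lost its call in 2 of 18 alternatives. *Pdhb*, a subunit of pyruvate dehydrogenase, fell in MFN1-KD from 334.21, 327.89 and 334.17 FPKM to 186.82, 190.99 and 132.50 FPKM, by 0.98 on the log2 scale (limma adjusted p = 0.0409), a call that was lost in 10 of 18 alternatives (adjusted p up to 0.162).

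**Figure D5:**
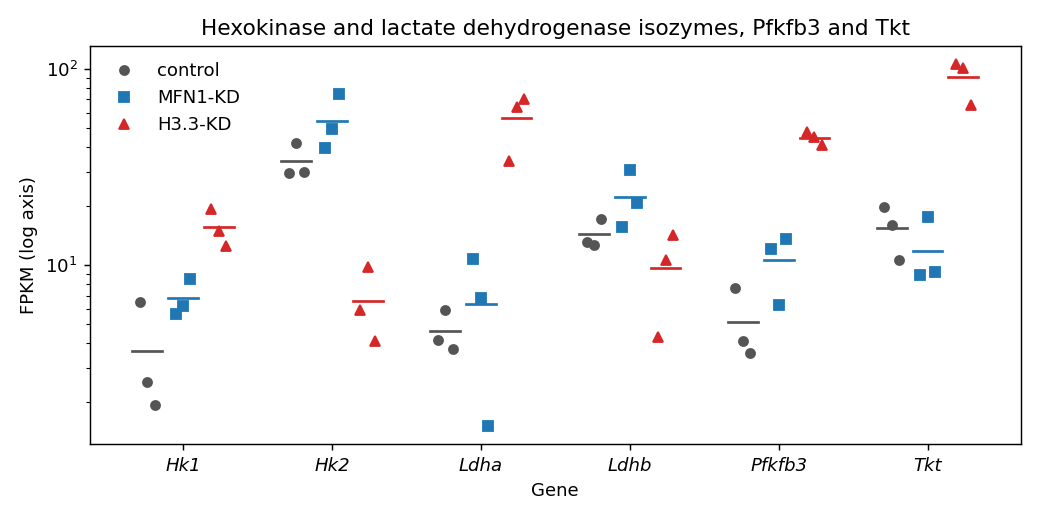
FPKM on a log axis of *Hk1*, *Hk2*, *Ldha*, *Ldhb*, *Pfkfb3* and *Tkt*, with a point for each of the 3 libraries of a group and a line at the group mean. In H3.3-KD the *Hk2* points lie below and the *Ldha* points above all controls, while *Ldhb* overlaps them.

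Glucose enters through transporters and its use is set by regulators of phosphofructokinase. Of 11 transport genes 5 were tested, and 2 rose in H3.3-KD with 0 falling (median 1.05), against 21.8% and 9.12% of all genes. These were the glucose transporters *Slc2a8* (5.18, 4.11 and 1.86 FPKM to 17.60, 17.72 and 9.73 FPKM, log2 fold change 1.79, limma adjusted p = 0.00738) and *Slc2a3* (4.34, 4.98 and 4.08 FPKM to 9.19, 17.65 and 25.74 FPKM, 1.66, adjusted p = 0.0128). *Slc2a8* lost its call with the GC and length trend removed (0.29, limma adjusted p = 0.577). Of 14 regulators 13 were tested, and 5 rose and 0 fell in H3.3-KD (median 0.68), against the same shares of all genes. Among these 5, *Mlxipl* averaged 4.79 FPKM after H3.3 knockdown, 1.07 FPKM in control and 0.297 FPKM after MFN1 knockdown. It passed the filter of 1 FPKM only through H3.3-KD, where it is high, so its call is a description. *Pfkfb3*, whose product makes the fructose bisphosphate that activates phosphofructokinase, rose from 7.64, 4.10 and 3.58 FPKM to 48.04, 45.18 and 40.83 FPKM, a log2 fold change of 2.96 ± 0.35 (limma adjusted p = 0.000327). *Arnt*, the partner of the hypoxia-inducible factors, rose by 2.26 and *Pfkfb2* by 1.33 (limma adjusted p = 0.00674 and 0.0153), and 0 genes of the transport and regulator lists passed in MFN1-KD.

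The pentose phosphate pathway branches off after hexokinase and makes NADPH and ribose. All 7 of its genes were tested, and 3 rose and 0 fell in H3.3-KD (median 0.62), against 21.8% and 9.12% of all genes, with 1 rising in MFN1-KD (median -0.49), against 1.15%. *Tkt* (transketolase) rose from 19.78, 16.05 and 10.64 FPKM to 106.13, 100.77 and 65.81 FPKM, a log2 fold change of 2.49 ± 0.35 (limma adjusted p = 0.000667). *Pgd* rose by 1.48 (adjusted p = 0.00340) and *Rpia*, which makes ribose phosphate, by 1.27 (limma adjusted p = 0.0145, lost in 5 of 18 alternatives). *Rpia* was also the gene that rose in MFN1-KD, at 22.74, 27.91 and 46.01 FPKM against 15.76, 10.77 and 8.36 FPKM (1.38, limma adjusted p = 0.0499). That call was lost in 13 of 18 alternatives (adjusted p up to 0.198), and both comparisons use the same controls. Of 8 gluconeogenesis genes 3 were tested and 0 passed in either knockdown, and of 14 genes of glycogen and hexosamine metabolism 10 were tested and 1, *Gnpnat1*, fell in H3.3-KD by 0.89 (limma adjusted p = 0.00522).

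Among the 5933 genes averaging 10 FPKM or more, those other than itself whose log2(FPKM + 1) followed *Gapdh* most closely over the 9 libraries were *Gpatch4* (Pearson's r = 0.963), *Sertad1* (0.962), *Csrnp1*, *Rnf216* and *Taf1a* (0.950 each). The nearest to the other enzymes were *Ankle2* for *Hk1* (r = 0.980), *Riox1* for *Pfkl* (0.988), *Bcat1* for *Aldoa* (0.989), *M6pr* for *Eno1* (0.988), *Nf2* for *Pkm* (0.987), *Tnpo3* for *Gpi1* (0.945), *Srsf6* for *Tpi1* (0.965) and *Nae1* for *Pgk1* (0.935). The nearest to *Pgam1* (0.977) was a row whose symbol had been turned into a date. Of the enzymes, *Gpi1*, *Aldoa*, *Gapdh*, *Pgam1* and *Pkm* reached this level and could have been a match. None of these 5 was the nearest gene of another enzyme. *Gapdh* and *Pkm* reached it only through H3.3-KD, where they are high (5.77 and 6.67 FPKM over the remaining libraries). *Pgk1* would have reached it without H3.3-KD (11.2 FPKM). *Csrnp1* too reached it only through the H3.3 knockdown (mean 28.9 FPKM, against 6.56 for control and 9.82 after *Mfn1* knockdown). Its place beside *Gapdh* therefore supports nothing. All these matches are descriptions of 9 libraries that share groups and depth, and each is the best match among all genes compared.

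Within the set, *Gapdh* followed *Pkm* (r = 0.91) and *Pfkl* (r = 0.87) most closely over the 9 libraries and followed *Tpi1* least among the positive ones (r = 0.23). *Pgk1* ran against 8 of the other 9, from -0.12 with *Aldoa* to -0.72 with *Pfkl*, and had an r of 0.24 with *Tpi1*. These values contain the differences between the groups and have no test attached.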

How the data were processed

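RNA-seq was made from pools of 8-cell embryos, 3 libraries per group. The authors used cutadapt 1.16 for trimming, STAR for mapping to mm10 and Deseq2 for testing. The deposited values are FPKM at 2 decimals. The program behind them, the annotation and the strand setting are not given in the sources used here. Counts were not used here and whole reads could not be recovered from low FPKM, so depth is unknown.

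The 13011 genes averaging 1 FPKM or more were tested on log2(FPKM + 1) with limma 3.58.1 (trend, robust) in R 4.3.3, in a model of all 9 libraries with Benjamini-Hochberg adjustment. A pool is the replicate, and nothing says that the pools came from separate matings, so p-values measure the spread between pools. On simulated data with 200 of 13011 genes changed at a log2 fold change of 2 in H3.3-KD, the fit was checked before use. Single values were compared by two-sided exact permutation tests. Positions, GC content and copies came from GENCODE (GRCm38), promoters from RefSeq (GRCm38.p6); all 10 genes matched both. The enzymes and lists were chosen with earlier results of these data known. From each pathway list and knockdown, at most the 3 genes of smallest p among those called are named, with the gene of highest r per enzyme (5 for *Gapdh*) and the copy sharing most sequence; some genes of these lists are not reported here. Alternatives were other scalings (median ratio, upper quartile, *Gapdh*), filters, a pseudocount of 0.1, 6 libraries, the replicate number as a block, library weights, GC and length trend removal (splines, 5 degrees of freedom) and each library left out. Adding copies to the members was chosen after seeing the data. Python 3.11.15 made the tables.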

Additional observations from a re-analysis of the deposited data

How the results depend on the processing

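The count of enzymes higher in H3.3-KD than in control was 7, where 21.8% of all genes were higher. It was 4 under median-ratio scaling (16.0% of all genes), 4 under upper-quartile scaling (14.3%) and 4 without a filter (8.02%). It was 4 of the 5 enzymes left by a mean of at least 10 FPKM (26.8% of all genes). *Gapdh* and *Pkm* pass that filter only through H3.3-KD, where they are high, so this count supports nothing. The count was 1 with the GC and length trend removed (11.6% of all genes). Scaled to *Gapdh* it was 0 (0.522%), where 5 were lower, as were 62.7% of all genes. With a library left out it was 3 to 7 (13.5 to 26.5% of all genes), with none lower. The count higher in H3.3-KD than in MFN1-KD was 6, where 27.6% of all genes were higher. It was 3 of 5 under a mean of at least 10 FPKM (32.9% of all genes), with the same limit for *Gapdh* and *Pkm*. With the GC and length trend removed it was 0 (13.9%), and 1 was lower (14.3% of all genes). Scaled to *Gapdh* it was 0 (0.958%), and 1 was lower (24.3%). With a library left out it was 3 to 6 (21.2 to 29.7% of all genes). In MFN1-KD against control 0 were called, and 0 to 0 with a library left out. A single exception was 1 lower when copies were added, where 2.21% of all genes were lower. Library weights left the counts higher in H3.3-KD at 8 and 6, where 36.4% and 28.6% of all genes were higher. Causes were not tested, but scaling to *Gapdh* subtracts its own rise from every gene by construction (median of all genes -2.0 against control and -1.1 against MFN1-KD), so counts and signs under it say nothing about the other enzymes.

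The replicate numbers shared by the groups did not pair the libraries (correlations of same-numbered deviations -0.053 to 0.158). With the replicate block, 7 enzymes were higher in H3.3-KD than in control, where 21.0% of all genes were higher. Against MFN1-KD 5 were higher, where 26.8% of all genes were, and *Hk1* lost its call (limma adjusted p = 0.0579). The block left the targets relative to *Gapdh* at -3.40, -6.48 and -6.43, with an exact p that cannot go under 0.25.

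Signs turned as follows. With the GC and length trend removed, H3.3-KD against control gave -0.20 for *Gpi1* and -0.12 for *Tpi1*, H3.3-KD against MFN1-KD gave -0.03 for *Hk1*, -0.64 for *Gpi1*, -0.06 for *Pfkl* and -0.57 for *Pgam1*, and MFN1-KD against control gave 0.15 for *Aldoa* and 0.12 for *Pgk1*. Scaled to *Gapdh*, H3.3-KD against control gave -0.71 for *Hk1*, -2.24 for *Gpi1*, -0.47 for *Pfkl*, -2.07 for *Aldoa*, -1.71 for *Tpi1*, -2.0 for *Pgam1*, -1.38 for *Eno1* and -0.73 for *Pkm*. The same scaling gave -0.83 for *Hk1*, -1.66 for *Gpi1*, -0.24 for *Pfkl*, -0.82 for *Aldoa*, -0.27 for *Tpi1*, -1.72 for *Pgam1* and -0.06 for *Pkm* in H3.3-KD against MFN1-KD, and -0.57 for *Gpi1*, -0.23 for *Pfkl*, -0.28 for *Pgam1* and -0.67 for *Pkm* in MFN1-KD against control. In H3.3-KD against MFN1-KD, *Gpi1* was -0.05 under median-ratio and -0.13 under upper-quartile scaling and *Pgam1* -0.01 under the latter. In MFN1-KD against control, *Gapdh* was -0.23 with copies added, and leaving out a library gave -0.13 to 0.46 for *Pkm* and -0.66 to 0.06 for *Pgk1*.

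Relative to *Gapdh* with a library left out, *Mfn1* differed by -4.35 to -2.72, *H3f3a* by -6.81 to -6.06 and *H3f3b* by -6.68 to -6.02. *Pfkl* and *Tpi1* had the lowest control means of the 10 enzymes (0.743 and 2.16 FPKM). How far the lack of counts limits their precision was not measured.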
